A study of Homo sapiens with 11 samples.

Results

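The MAP kinase phosphatases are dual-specificity phosphatases (DUSPs) that switch off MAP kinases by removing phosphate from a threonine and a tyrosine in the kinase's activation loop. Many of their genes are themselves induced by MAP kinase signalling, so the family forms a negative feedback on ERK, JNK and p38. In hepatic stellate cells these kinases act downstream of growth factors and of Toll-like receptors, and in inflammatory cells DUSP1 is a known brake on cytokine genes. The genes described here are DUSP1, DUSP2, DUSP4, DUSP5, DUSP6, DUSP7, DUSP8, DUSP10, DUSP14 and DUSP16, which are 10 of the 35303 genes in the count file. They were taken by symbol, and the family was selected on its CPM (counts scaled by library size) in these same libraries, compared between treatments within a replicate number. Their treatment values below are therefore descriptions without a test.

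The study sequenced RNA from Lx2, an immortalised human line of wild-type genotype made from hepatic stellate cells, the collagen-producing cells of the liver. There were 3 libraries of cells infected with HIV-1-Bal at an MOI of 0.1 and given 1 ug/ml lipoteichoic acid (LTA), 3 of cells infected with HIV-1-Bal at an MOI of 0.1, and 3 of cells given PBS. HIV-1-Bal is a laboratory strain of the virus, and LTA is a cell wall polymer of gram-positive bacteria that is sensed through TLR2. All groups were treated for 24 h, share the same line and were grown in DMEM with serum, and the replicate number of a library is its batch number in the labels. The study asks, by its title, what HIV-1 does to the interleukin-8 that stellate cells make when they meet gram-positive products. Nothing states that the 3 libraries of a group came from separately grown cultures, so errors below measure the spread between libraries, which may be technical, and all come from 1 cell line.

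The libraries held 65, 65.9 and 50.6 M counts in HIV-1+LTA cells, 55.2, 57.9 and 62.2 M in HIV-1 cells, and 90.6, 80 and 55.6 M in PBS cells. The libraries of batch 3 stand apart. In 1 fit of treatment and batch, edgeR's quasi-likelihood test called 11478 of 16117 genes between batch 3 and batches 1 and 2 at a Benjamini-Hochberg adjusted p below 0.05, and 5 between batches 2 and 1. Treatment differences were therefore read within a batch. Differences between treatments were also unequal in size between batches: of 9319 genes averaging 10 CPM or more, those that differed by more than 0.5 on the log2 scale between HIV-1+LTA and HIV-1 cells numbered 3 in batch 1, 393 in batch 2 and 213 in batch 3. Stellate cell markers were in place in part. Of 12 markers, 9 averaged over 1 CPM, with COL1A1 between 794 and 1430 CPM, PDGFRB between 32.3 and 50.7 CPM and ACTA2 between 72 and 218 CPM. LRAT, which marks quiescent stellate cells, had 3 counts in all libraries together, and DES and HGF stayed below 1 CPM. Averages over 1 CPM were found for 0 of 5 hepatocyte markers and 0 of 4 endothelial ones. Of 5 macrophage markers CSF1R did so (0.55 to 1.75 CPM), while PTPRC reached 0.876 CPM, C1QA had 0 counts and CD163 had 1 count. Of 4 T cell markers CD4 did so, at 1.36 to 18.2 CPM, while CD3E and CD3D stayed at or below 0.0564 CPM. Of 4 cholangiocyte markers SOX9 (18.5 to 35.7 CPM) and KRT7 (2.85 to 7.55 CPM) did so, while KRT19 and EPCAM stayed at or below 0.173 CPM.

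DUSP1 was lower with LTA in batches 2 and 3, and DUSP1, DUSP6 and DUSP14 all averaged higher in batch 3. The 250 bases before the RefSeq start sites of these 3 genes are therefore shown. They are given 5′ to 3′ on the gene's strand, as RefSeq's promoter table (GRCh38.p14) holds them, and each matched GRCh37 exactly at 1 place on its chromosome. Capitals mark TGACG (the core of the cAMP response element TGACGTCA), CACGTG (an E-box), TGACTCA (an AP-1 site), CCAAT and TATAAA, read on both strands.
DUSP1, chr5:172198199-172198448, minus strand: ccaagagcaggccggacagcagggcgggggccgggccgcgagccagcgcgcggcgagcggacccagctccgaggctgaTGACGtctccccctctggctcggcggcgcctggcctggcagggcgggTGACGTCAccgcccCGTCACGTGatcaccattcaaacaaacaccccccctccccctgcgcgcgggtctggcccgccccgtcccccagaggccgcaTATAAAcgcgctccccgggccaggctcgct
DUSP6, chr12:89746279-89746528, minus strand: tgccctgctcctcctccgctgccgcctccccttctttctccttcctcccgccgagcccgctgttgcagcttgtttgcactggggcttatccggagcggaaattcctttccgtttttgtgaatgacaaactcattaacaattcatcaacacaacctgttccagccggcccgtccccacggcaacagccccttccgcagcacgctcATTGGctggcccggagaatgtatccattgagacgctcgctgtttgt
DUSP14, chr17:35849747-35849996, plus strand: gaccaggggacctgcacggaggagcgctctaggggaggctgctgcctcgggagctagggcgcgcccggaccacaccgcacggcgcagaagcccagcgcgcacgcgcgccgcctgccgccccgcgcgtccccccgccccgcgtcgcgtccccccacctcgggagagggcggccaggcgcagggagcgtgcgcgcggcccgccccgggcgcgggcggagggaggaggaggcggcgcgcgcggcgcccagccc

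The DUSP1 window held a whole TGACGTCA starting 125 bases before the start site, 4 matches of TGACG (a pair of them inside that whole element), a CACGTG starting 108 bases before the start site that shares bases with a TGACG match, and a TATAAA starting 30 bases before it. Of 35116 promoter windows of the same length in the table, 1.65% held TGACGTCA, 21.2% TGACG, 6.34% CACGTG, 10.7% TATAAA, 32% CCAAT and 4.2% TGACTCA. The DUSP6 window held 1 CCAAT match, starting 46 bases before the start site. The DUSP14 window held none of the capitalised letter runs, had 5 matches of GGGCGG (a GC box, held by 42.6% of windows) and was 82.8% G or C, against 74.4% for DUSP1 and 57.2% for DUSP6. Of the 8 members with an entry in the table, DUSP8 was the other one with TGACGTCA, at 2 places. DUSP4 and DUSP5 are named only. These are letter matches and say nothing of binding.

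Levels of different genes were compared per kilobase of exon. DUSP1 stood first, with a median of 18.8 CPM per kb over the 9 libraries (range 14.2 to 32.7), followed by DUSP14 with 13.5 CPM per kb (10.9 to 33.8), and these ranges overlap. DUSP16, DUSP10, DUSP5 and DUSP7 came next with medians of 5.93, 5.69, 5.57 and 5.53 CPM per kb, and the ranges of these 4 genes overlap one another while lying below every library of DUSP1 and DUSP14. DUSP6 had a median of 2.28 CPM per kb (1.81 to 5.49) and DUSP4 one of 1.93 CPM per kb (1.61 to 2.64), again with overlapping ranges. The range of DUSP6 also reaches into those of DUSP16, DUSP10, DUSP5 and DUSP7. DUSP8 was below all of these at 0.594 CPM per kb (0.399 to 0.901). DUSP2 was lowest at 0.154 CPM per kb (0.0636 to 0.396), with 7 to 38 counts per library, so its values carry large counting error. The lengths come from the union of annotated exons, which overstates the transcript of a gene whose long forms are not used. All 10 genes passed edgeR's filter on low counts, DUSP2 included.

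**Figure D1:**
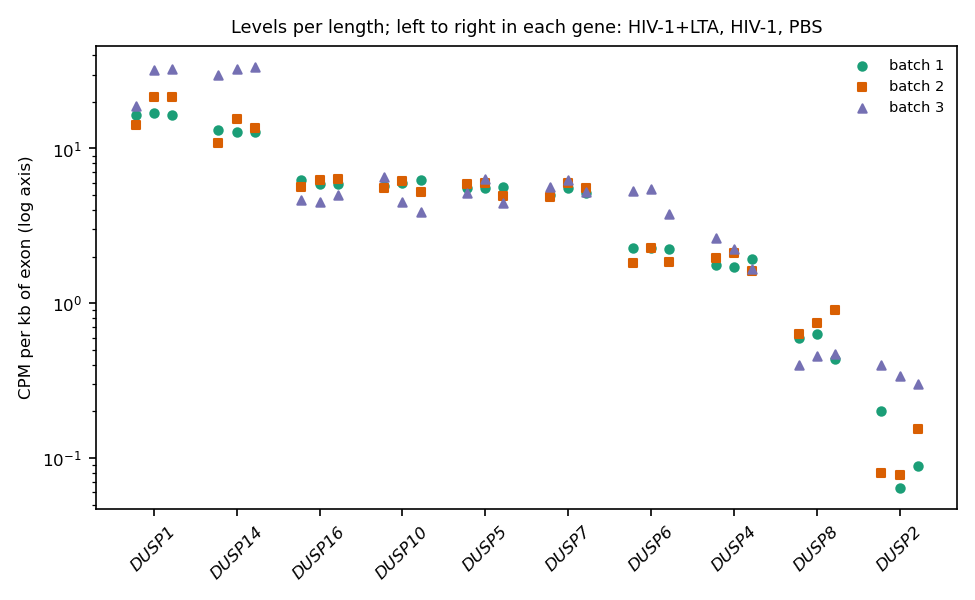
CPM per kb of exon (log axis) of the 10 MAP kinase phosphatase genes in each of the 9 libraries, ordered by their median. Within a gene the points stand for HIV-1+LTA, HIV-1 and PBS cells, and colours and shapes mark the batches. DUSP1 and DUSP14 lie above 10 CPM per kb in every library, and DUSP2 lies lowest.

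Added up, the 10 genes came to 193.3, 178.3 and 249.2 CPM in HIV-1+LTA libraries 1 to 3, 194.2, 220.1 and 281.6 CPM in HIV-1 libraries, and 192.3, 203.6 and 265.6 CPM in PBS libraries. The sum was highest in batch 3 in each treatment, and in batch 1 the treatments lay close together. In batches 2 and 3 the HIV-1 library had the highest sum and the HIV-1+LTA library the lowest. The most abundant genes weigh most in this sum. Between the HIV-1 and HIV-1+LTA libraries of batch 3, DUSP1 went from 64.7 to 37.9 CPM, while 4 of the 10 genes were higher with LTA. In batch 2, 1 of the 10 was higher with LTA. In bulk RNA, fewer cells that express a gene and less of its RNA per cell cannot be told apart.

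**Figure D2:**
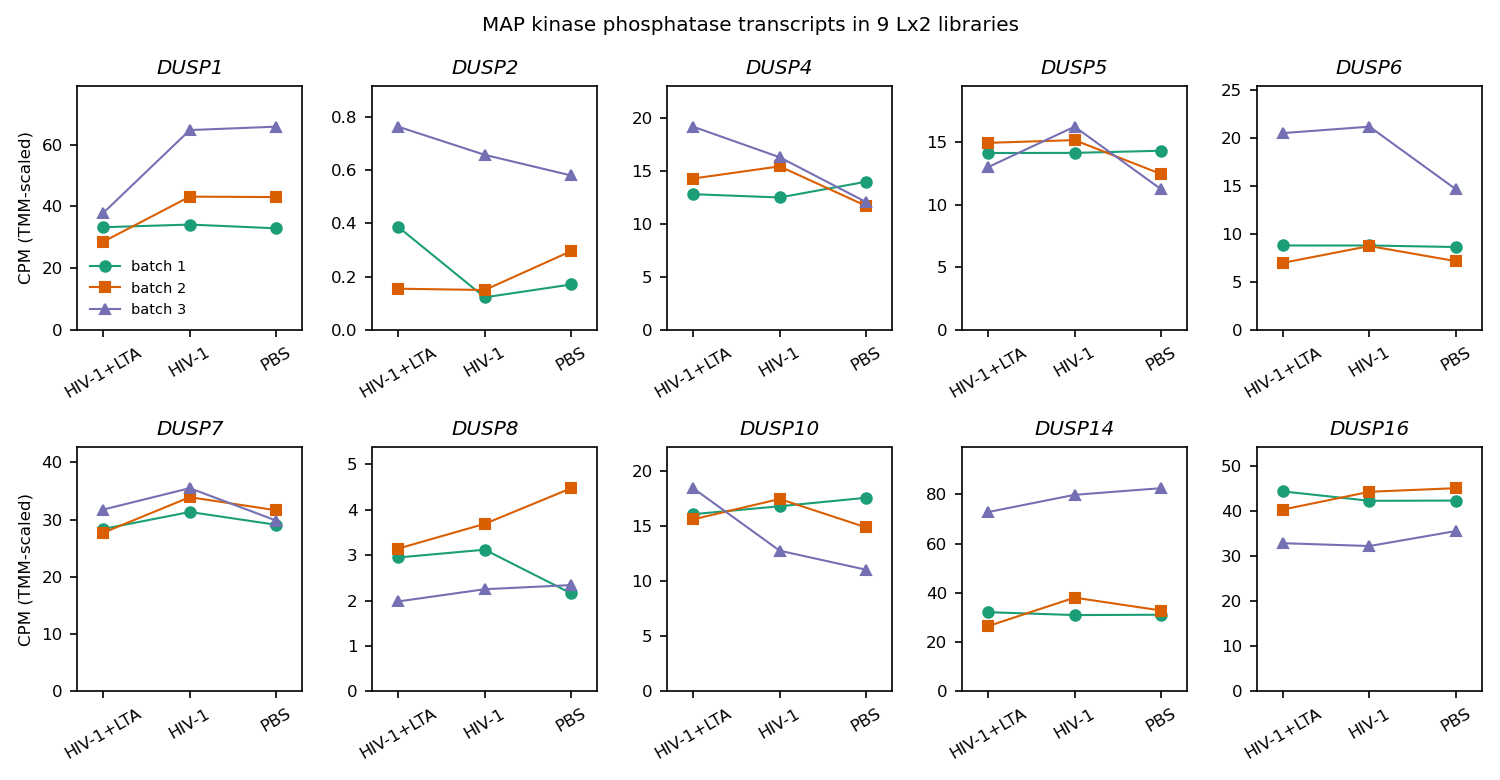
CPM of each of the 10 genes (vertical axes start at 0) in HIV-1+LTA, HIV-1 and PBS libraries, with a line joining the libraries of 1 batch. Batch 3 lies above the other batches for DUSP2, DUSP6 and DUSP14 and below them for DUSP16, and the DUSP1 lines of batches 2 and 3 are lowest in HIV-1+LTA cells.

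Among the nuclear, inducible phosphatases, DUSP1 (MKP-1), which acts on p38, JNK and ERK, was lower in HIV-1+LTA cells in batches 2 and 3. It had 33.3, 28.6 and 37.9 CPM in HIV-1+LTA libraries 1 to 3, against 34.1, 43.2 and 64.7 CPM in HIV-1 libraries and 32.9, 43 and 65.8 CPM in PBS libraries. In batches 2 and 3 the HIV-1+LTA library was the low one, while in batch 1 all 3 treatments lay between 32.9 and 34.1 CPM, and the groups overlap. The within-batch difference of HIV-1+LTA from HIV-1 cells was -0.04, -0.59 and -0.77 on the log2 CPM scale in batches 1, 2 and 3, and that of HIV-1+LTA from PBS cells was 0.02, -0.59 and -0.80. HIV-1 cells differed from PBS cells by 0.05, 0.01 and -0.02. The edgeR fit gave log2 fold changes of -0.46 (SE 0.123) for HIV-1+LTA over HIV-1, a fold of 0.728, -0.45 (SE 0.123) for HIV-1+LTA over PBS, and 0.01 (SE 0.121) for HIV-1 over PBS. The 2 comparisons with LTA share the HIV-1+LTA libraries, so they are not independent of each other.

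DUSP5, a nuclear phosphatase that is selective for ERK, had 14.1, 14.9 and 13 CPM in HIV-1+LTA libraries, 14.1, 15.1 and 16.2 CPM in HIV-1 libraries, and 14.3, 12.4 and 11.2 CPM in PBS libraries. The HIV-1 libraries of batches 2 and 3 lay above their PBS partners, by 0.28 and 0.53 on the log2 scale, and in batch 1 the difference was -0.02. The fit gave 0.26 (SE 0.0976) for HIV-1 over PBS. DUSP4 (MKP-2), which is found in the nucleus and acts on ERK and JNK, had 12.8, 14.3 and 19.2 CPM in HIV-1+LTA libraries, 12.5, 15.5 and 16.3 CPM in HIV-1 libraries, and 14, 11.7 and 12.1 CPM in PBS libraries. In batches 2 and 3 both virus-treated libraries lay above PBS, and in batch 1 both lay below it, with HIV-1+LTA differing from PBS by -0.13, 0.29 and 0.67 and HIV-1 from PBS by -0.16, 0.40 and 0.43. DUSP2 (PAC-1), best known from activated lymphocytes, had 0.387, 0.155 and 0.763 CPM in HIV-1+LTA libraries, 0.123, 0.15 and 0.658 CPM in HIV-1 libraries, and 0.171, 0.296 and 0.58 CPM in PBS libraries. Its standard error of 0.442 to 0.444 on the log2 scale for HIV-1+LTA over HIV-1 and HIV-1 over PBS was at least 3 times that of any other nuclear member, and its treatment order changed from batch to batch.

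Both cytoplasmic, ERK-selective phosphatases were higher in HIV-1 than in PBS cells in every batch, as were 16.3% of all genes tested, and the difference of DUSP6 in batch 1 was close to 0. DUSP6 (MKP-3), a feedback target of ERK signalling, had 8.81, 7 and 20.5 CPM in HIV-1+LTA libraries, 8.81, 8.76 and 21.2 CPM in HIV-1 libraries, and 8.65, 7.18 and 14.7 CPM in PBS libraries. Its differences of HIV-1 from PBS were 0.03, 0.29 and 0.53 in batches 1 to 3, with a fitted 0.28 (SE 0.109), a fold of 1.22. The 3 libraries of batch 1 could hardly be told apart, and the largest gap was in batch 3. DUSP7 (MKP-X), the relative of DUSP6, had 28.4, 27.7 and 31.8 CPM in HIV-1+LTA libraries, 31.4, 33.9 and 35.5 CPM in HIV-1 libraries, and 29.1, 31.6 and 29.8 CPM in PBS libraries. In each batch its HIV-1 library was the highest of the 3, and HIV-1+LTA cells differed from HIV-1 cells by -0.14, -0.29 and -0.16. The fit gave 0.15 (SE 0.0632) for HIV-1 over PBS and -0.20 (SE 0.0635) for HIV-1+LTA over HIV-1, a fold of 0.871. Both values use the same HIV-1 libraries, so their opposite signs are not independent. For HIV-1+LTA over PBS the fit gave -0.05 (SE 0.0633).

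The phosphatases that prefer JNK and p38 had no common direction. DUSP10 (MKP-5) had 16.1, 15.6 and 18.4 CPM in HIV-1+LTA libraries, 16.8, 17.5 and 12.8 CPM in HIV-1 libraries, and 17.6, 14.9 and 11 CPM in PBS libraries. Its HIV-1+LTA library was the highest of the 3 in batch 3 and the lowest in batch 1. DUSP16 (MKP-7) stayed between 32.3 and 45.1 CPM in all libraries, with fitted log2 fold changes of -0.01 (SE 0.061) for HIV-1+LTA over HIV-1, -0.07 (SE 0.0607) for HIV-1+LTA over PBS and -0.05 (SE 0.0607) for HIV-1 over PBS. DUSP8 had 2.95, 3.14 and 1.98 CPM in HIV-1+LTA libraries, 3.12, 3.69 and 2.25 CPM in HIV-1 libraries, and 2.16, 4.47 and 2.34 CPM in PBS libraries, and its difference of HIV-1 from PBS was 0.53 in batch 1 and -0.28 in batch 2. DUSP14 (MKP-6) is a small atypical member without the kinase-binding domain of the others. It had 32.2, 26.5 and 72.8 CPM in HIV-1+LTA libraries, 31, 38.1 and 79.8 CPM in HIV-1 libraries, and 31.1, 32.9 and 82.5 CPM in PBS libraries. HIV-1+LTA cells were below both other treatments in batches 2 and 3, and the fit gave -0.20 (SE 0.0876) for HIV-1+LTA over HIV-1.

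**Figure D3:**
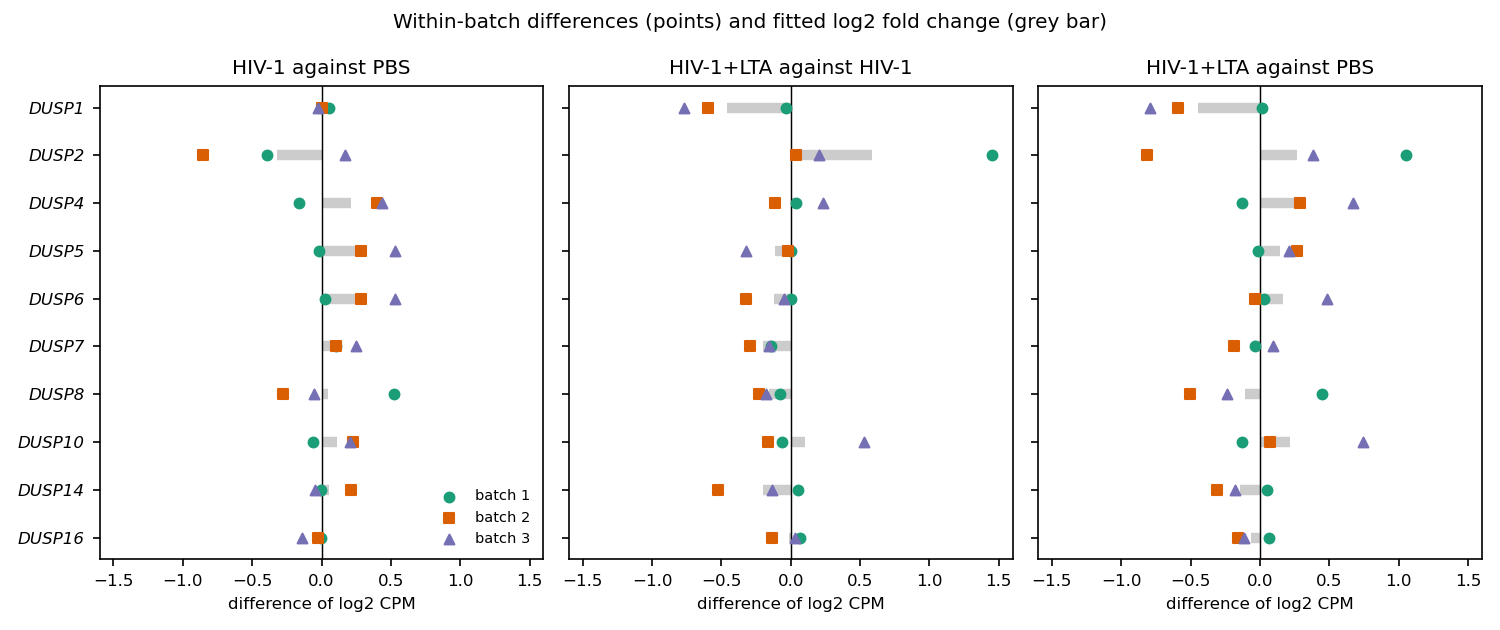
Differences of log2 CPM between treatments within batches 1, 2 and 3 (points) and the fitted log2 fold change of edgeR (grey bars from 0) for the 10 genes. The points of batch 1 lie near 0 for most genes, and those of DUSP1 with LTA lie at -0.59 and below in batches 2 and 3.

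Across the 10 genes, HIV-1 over PBS gave a median log2 fold change of 0.08, with 8 of 10 above 0, beside a median of 0.00 over all 16117 genes tested, of which 7935 were above 0. The medians of the 10 genes within batches 1, 2 and 3 were 0.00, 0.16 and 0.19. DUSP6 and DUSP7 were higher in HIV-1 cells in all 3 batches, as were 16.3% of all genes, and DUSP16 was lower in all 3, as were 17.1%. These 3 of 10 are close to the background. The 10 genes had a median of -0.12 in HIV-1+LTA over HIV-1, with 3 of 10 above 0, beside 0.00 over all genes, and within batches it was 0.00, -0.20 and -0.09. DUSP1, DUSP5, DUSP7 and DUSP8 were lower in HIV-1+LTA cells in all 3 batches, beside 17.1% of all genes, and DUSP2 was higher in all 3, beside 16.7%. The DUSP5 differences were only -0.0007 in batch 1 and -0.02 in batch 2, and that of DUSP1 was -0.04 in batch 1. In HIV-1+LTA over PBS the median was 0.05, with 5 of 10 above 0, and 0 members kept 1 direction in all 3 batches, beside 17.5% of all genes higher and 16.4% lower. In none of the 3 comparisons did the libraries of the compared groups separate for any of the 10 genes. Over all genes the shares with groups that do not overlap were 1.54% higher and 1.19% lower for HIV-1 over PBS, 2.12% and 2.26% for HIV-1+LTA over HIV-1, and 2.06% and 1.76% for HIV-1+LTA over PBS.

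The 3 treatment comparisons were fitted over the whole table, and because the family was selected on the same values, nothing is read from the members' place among the genes called. The edgeR fit with batch called 0 of 16117 genes (0%) in each of the 3 comparisons, and limma-voom also called 0. At an unadjusted p below 0.05, edgeR had 678 genes for HIV-1 over PBS, 2486 for HIV-1+LTA over HIV-1 and 2709 for HIV-1+LTA over PBS. DESeq2 with batch in the fit called 3 genes for HIV-1 over PBS (0.015%), 0 of them members. It called 252 genes for HIV-1+LTA over HIV-1 (1.94%), of which 182 were higher and 70 lower (0.538%), and 1 of the 70 was a member, DUSP1. For HIV-1+LTA over PBS it called 236 genes (1.93%), of which 118 were higher and 118 lower (0.964%), and DUSP1 was again the 1 member among the lower ones. DUSP2 had no DESeq2 adjusted p in either comparison with LTA, so 9 of the 10 members could be called there. The authors' deposited table lists DUSP1 with a log2 fold change of -0.46 (SE 0.117). That table names no comparison, but its fold changes matched the DESeq2 fit of HIV-1+LTA over PBS within 0.01 for all 19990 genes.

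The size of the DUSP1 difference depended on single libraries. Without HIV-1+LTA library 1, whose DUSP1 level was close to those of its batch, DESeq2 gave log2 fold changes of -0.69 for both HIV-1+LTA over HIV-1 and HIV-1+LTA over PBS. Without HIV-1+LTA library 3 it gave -0.29 and -0.30. The number of genes called moved too, to 2108 and 2419 without HIV-1+LTA library 1 and to 12 and 4 without HIV-1+LTA library 3, and DUSP1 was among those called in the first setting and not in the second. Leaving out HIV-1+LTA library 2 or HIV-1 library 2 or 3 also took DUSP1 out of the genes DESeq2 called in both comparisons, as did PBS library 2. Without PBS library 3 it dropped out for HIV-1+LTA over PBS. Its log2 fold change stayed below 0 in all 30 alternatives of each LTA comparison. Those alternatives reuse the same libraries on which the family was selected, so the kept sign is not separate support.

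The comparison that selected the family ran within batches and did not use differences between batches. These were tested on the same libraries. The members were chosen with earlier results of these data known, so the p-values below are not free of that choice. In batch 3 against batches 1 and 2, edgeR called 6 of the 10 genes, beside 71.2% of all genes tested (35.2% higher and 36% lower), so the members' count is not above the background. Batch 3 is 1 batch, and its libraries of different treatments are not repeats of the batch. Errors and p-values of the batch comparisons therefore measure the spread between libraries, and not the spread between batches. DUSP14 averaged 78.3 ± 5.01 CPM in batch 3, against 31.4 ± 0.647 CPM in batch 1 and 32.5 ± 5.79 CPM in batch 2 (SD, n = 3 treatments each), a log2 fold change of 1.30 (SE 0.0726, edgeR adjusted p = 1.57e-08). DUSP6 averaged 18.8 ± 3.6 CPM in batch 3, against 8.76 ± 0.0932 CPM in batch 1 and 7.64 ± 0.966 CPM in batch 2, a log2 fold change of 1.19 (SE 0.0911, edgeR adjusted p = 2.25e-07). Both genes more than doubled, with a fold of 2.45 for DUSP14 and 2.28 for DUSP6. DUSP2 was higher by 1.66 (SE 0.355, edgeR adjusted p = 0.00118), though at no more than 0.763 CPM, and DUSP1 by 0.62 (SE 0.104, edgeR adjusted p = 0.000182). DUSP1 ran from 37.9 to 65.8 CPM in batch 3 and from 28.6 to 43.2 CPM in batch 2, so these ranges overlap.

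Of the JNK and p38 phosphatases, DUSP16 averaged 33.6 ± 1.77 CPM in batch 3, against 43 ± 1.18 CPM in batch 1 and 43.2 ± 2.54 CPM in batch 2, a log2 fold change of -0.36 (SE 0.0538, edgeR adjusted p = 7.09e-05). DUSP8 differed by -0.55 (SE 0.165, edgeR adjusted p = 0.0101), but its adjusted p was 0.0521 without HIV-1 library 3. DUSP4 at 0.22 (SE 0.11), DUSP10 at -0.24 (SE 0.121), DUSP7 at 0.09 (SE 0.055) and DUSP5 at -0.08 (SE 0.0857) did not pass, with edgeR adjusted p of 0.0934, 0.0968, 0.151 and 0.403. DUSP10 passed when any 1 of the HIV-1+LTA libraries was left out, with -0.49 without library 3, and DUSP4 passed without PBS library 1 or 3. For DUSP2, DUSP6 and DUSP14 every library of batch 3 lay above every other library, as for 30.6% of all genes, and for DUSP16 every one lay below, as for 30.2%. In batch 2 against batch 1 no member was among the 5 genes called (0.031%). At an unadjusted edgeR p below 0.05 there was 1 member of 10, beside 1869 of 16117 genes tested. The batch difference cannot be told apart from anything else that differed between those batches.

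**Figure D4:**
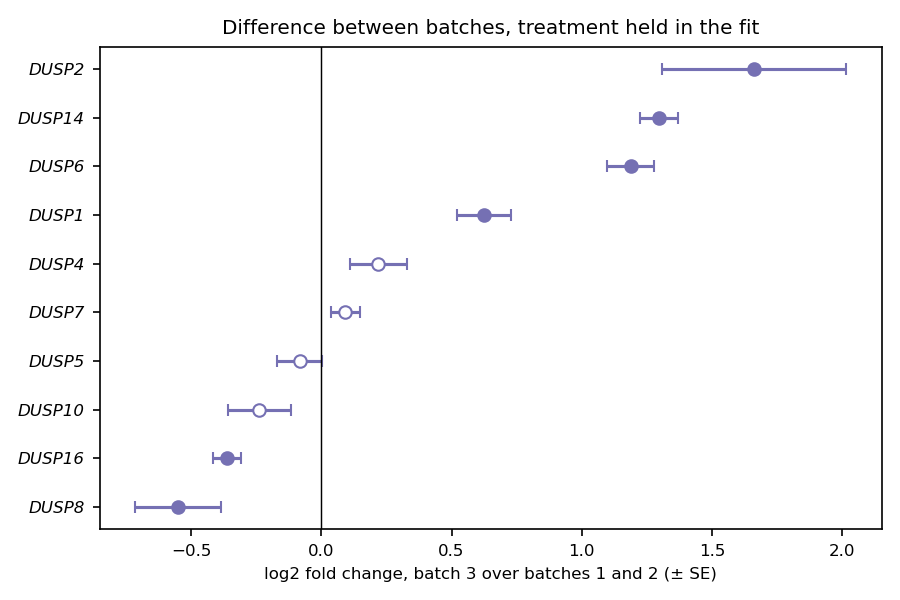
Log2 fold change (± SE) of the 10 genes in batch 3 over batches 1 and 2 from edgeR, with treatment in the fit. Filled points passed an adjusted p of 0.05: DUSP2, DUSP14, DUSP6 and DUSP1 were higher, and DUSP16 and DUSP8 were lower.

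The rest of the pathway was read from lists chosen with earlier results of these data known. Of 25 genes that ERK induces or that feed back on it (the Sprouty, SPRED, ETV and immediate early genes), 22 had a log2 fold change above 0 in HIV-1 over PBS cells, with a median of 0.12, beside 0.00 over all genes. The median within batches 1, 2 and 3 was -0.01, 0.12 and 0.35. In HIV-1+LTA over HIV-1, 10 of the 25 were above 0 with a median of -0.13, with -0.02, -0.16 and -0.18 in the 3 batches. None of the 25 was called in either comparison by edgeR or DESeq2. SPRY4, an inhibitor of receptor tyrosine kinase signalling to ERK, had 0.26 (SE 0.08) for HIV-1 over PBS and -0.25 (SE 0.0803) for HIV-1+LTA over HIV-1. IER3, an immediate early gene, had 0.30 (SE 0.0952) and -0.35 (SE 0.096) in the same comparisons. These comparisons share the HIV-1 libraries, so opposite signs are not independent.

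EGR1, an immediate early transcription factor, averaged 30.5 ± 13.7 CPM in HIV-1+LTA cells, 24.5 ± 8.49 CPM in HIV-1 cells and 22.7 ± 9.82 CPM in PBS cells (SD, n = 3 each), and DESeq2 called it higher in HIV-1+LTA than in PBS cells (log2 fold change 0.42, SE 0.124, adjusted p = 0.0439), whereas edgeR's adjusted p was 0.205. Of 15 genes linked to JNK and p38 or encoding effector kinases of the MAP kinases, DESeq2 called RPS6KA2 and RPS6KA5 for HIV-1+LTA over HIV-1. RPS6KA2, a ribosomal S6 kinase activated by ERK, averaged 22.6 ± 12.9 CPM in HIV-1+LTA cells, 15.4 ± 7.37 CPM in HIV-1 cells and 16.6 ± 7.8 CPM in PBS cells. It differed by 0.51 on the log2 scale (SE 0.119, DESeq2 adjusted p = 0.00439) for HIV-1+LTA over HIV-1 and 0.39 (SE 0.118, DESeq2 adjusted p = 0.0485) for HIV-1+LTA over PBS, and its differences of HIV-1+LTA from HIV-1 in the 3 batches were 0.07, 0.80 and 0.64. RPS6KA5, the kinase MSK1 that phosphorylates CREB and histone H3 downstream of ERK and p38, had 0.38 (SE 0.1, DESeq2 adjusted p = 0.0165) for HIV-1+LTA over HIV-1, and differences of 0.22, 0.33 and 0.61 in the batches. Of 9 tested genes of the glucocorticoid receptor list, a receptor that is known to induce DUSP1, KLF9 was called by DESeq2, at 0.36 (SE 0.0847, adjusted p = 0.00504) for HIV-1+LTA over HIV-1. KLF9 averaged 67.3 ± 19.5 CPM in HIV-1+LTA cells, 52.1 ± 13.4 CPM in HIV-1 cells and 62.5 ± 16.7 CPM in PBS cells. Its edgeR log2 fold change for HIV-1 over PBS was -0.26 (SE 0.0767). The HIV-1 libraries are in both comparisons, so the opposite signs are not independent. Of these 9 genes 5 were above 0 and 4 below it in that comparison, SGK1 among the lower ones at -0.26 (SE 0.0831, edgeR adjusted p = 0.209). For EGR1, RPS6KA2, RPS6KA5 and KLF9 edgeR's adjusted p in the comparisons where DESeq2 called them ran from 0.171 to 0.205.

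The kinases themselves and their activators had no called member in the treatment comparisons by either tool: 0 of 12 tested MAP kinases, 0 of 7 MAP2Ks, 0 of 15 MAP3K and RAS family genes, 0 of 6 other phosphatases that act on MAP kinases and 0 of 16 other DUSPs and relatives. For HIV-1+LTA over HIV-1 the numbers with an unadjusted edgeR p below 0.05 were 0, 2, 3, 2 and 3 in that order. MAP3K8, the kinase TPL2 that couples Toll-like receptors to ERK, had 0.43 (SE 0.131, edgeR adjusted p = 0.203) for HIV-1+LTA over HIV-1 and -0.37 (SE 0.13, edgeR adjusted p = 0.946) for HIV-1 over PBS. The first was above 0 in all 3 batches, as for 16.7% of all genes, and the second below 0 in all 3, as for 17.1%. Both comparisons use the HIV-1 libraries, so the opposite signs are not independent. MAPK8, which encodes JNK1, had -0.21 (SE 0.0601, edgeR adjusted p = 0.205) for HIV-1+LTA over PBS. AU-rich elements are known to affect the stability of DUSP1 mRNA. Of the 8 tested genes for proteins that bind such elements, 0 were called in the treatment comparisons. Their median log2 fold changes were -0.02 for HIV-1+LTA over HIV-1 and 0.01 for both comparisons with PBS. In batch 3 against batches 1 and 2, edgeR called 4 of the 7 MAP2Ks lower and 0 higher, led by MAP2K4, which activates JNK and p38, at -0.66 (SE 0.0574, edgeR adjusted p = 6.8e-07). Of the 15 genes linked to JNK and p38 or encoding effector kinases, it called 10 lower and 5 higher. The 15 include kinases that ERK activates, RPS6KA2 among them. Over all genes tested it called 71.2%, 36% lower and 35.2% higher. SPRY4 was higher there by 1.15 (SE 0.067, edgeR adjusted p = 2.19e-08) and EGR1 differed by -1.14 (SE 0.117, edgeR adjusted p = 2.85e-06).

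The genes most like DUSP1 over the 9 libraries, with batch means removed and among 9311 genes averaging 10 CPM or more, were USP47 (Pearson r 0.996), NEDD9 (0.995), XPO4 (0.994), MFSD1 (0.993) and ZNF26 (0.993). NEDD9, a focal adhesion scaffold, had a log2 fold change of -0.50 for HIV-1+LTA over HIV-1 and 0.02 for HIV-1 over PBS, a size close to that of DUSP1, while the other 4 genes had -0.14 to -0.24 for HIV-1+LTA over HIV-1. Those most like DUSP6 were CCDC22 (0.979), SLC66A1 (0.978), DNAJC5 (0.977), HSPA1A (0.97) and ALKBH5 (0.967). For several of these genes the likeness rests on removing batch means, and without that step r was -0.871 for SLC66A1, -0.907 for ALKBH5 and -0.553 for HSPA1A with DUSP6, and -0.583 for XPO4 and -0.152 for ZNF26 with DUSP1. It stayed at 0.908 for NEDD9 and 0.959 for USP47 with DUSP1. The points share libraries and depth, and the highest of 9311 values is high by selection.

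The deposited ChIP-seq peak list of HIV-1-treated cells holds 166 peaks on hg19 and no value per peak, and the antibody is not given in the sources used here. The title of that ChIP-seq sample names Lx2 cells while its cell line label reads Lx5, so the cells behind the peaks are in doubt. The nearest peak to a member's start site was at chr3:52081047-52081257, 9.33 kb from that of DUSP7 (chr3:52082935-52090587, minus strand). It lies 1678 bases beyond the 3′ end of DUSP7, within the lncRNA ENSG00000285685 on the plus strand, and covers 0 of its exon bases. Of 20176 protein-coding genes, 137 had a peak within 10 kb of their start site. DUSP16 had its nearest peak 162 kb away, and the other 8 members had theirs at least 3181 kb away, DUSP1 at 8475 kb.

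The counts of 3 members can hold reads of other loci. The exons of DUSP6 share 1105 of their 3859 bases with an lncRNA on the opposite strand, and the strand setting of the counting is not given in the sources used here. DUSP5 has 2 pseudogenes by name and DUSP8 has 5, none of them with a row in the count file. DUSP1 (chr5:172195099-172198198, minus strand) shared no exon bases with another gene in the annotation used.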

How the data were processed

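RNA-seq counts of 9 Lx2 libraries were used with the deposited comparison table and peak list. Per the submitters' processing notes and the series' design text, the authors made the counts with fastp, STAR, SAMtools and HTSeq on hg19, and the peaks with Bowtie2, MACS, bedtools and deepTools; versions, the strand setting, the antibody and the peak threshold are not given in the sources used here. The deposited counts are whole numbers per gene symbol. The authors' deposited DESeq2 table gives for each gene a size-factor-scaled mean (signal), a log2 fold change and its log2 standard error, and a Wald score. It also holds, as deposited, each p-value before and after adjustment.

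The members and lists were chosen with earlier results of these data known. Genes were filtered with filterByExpr (16117 of 35303 kept) and fitted with edgeR 4.0.16 (quasi-likelihood, TMM, group and batch, all 9 libraries), with Benjamini-Hochberg adjustment over all genes tested and a threshold of 0.05. TMM factors ran from 0.899 to 1.08. CPM values are TMM-scaled, and log2 CPM used a prior count of 2. Alternatives were DESeq2 1.42.0 (genes totalling 10 counts or more), limma-voom (limma 3.58.1), no block, other size factors, no filter and leaving out each library or batch, on R 4.3.3. DESeq2 with each library or batch left out, and the members' settings in the batch comparison, were added after seeing the data. The replicate number is the batch number in the labels, which is why it entered the fit; same-batch libraries correlated at 0.705 to 0.917 in their deviations from the group means. Libraries of batches 1 and 2 correlated with each other at 0.684 to 0.764, so these values set batch 3 apart and do not separate batches 1 and 2. Kilobases and positions come from GENCODE v44 lifted to GRCh37. The fit was also run on counts simulated from an edgeR fit of these data, with changes larger than any fitted treatment difference of the members. That run does not bear on calls at the sizes seen here.

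All members are named. Of each list, genes called in the fit named beside them are given, at most 4 by lowest p, or up to 2 where none was called. The genes most like DUSP1 and DUSP6 are the 5 with the highest Pearson r. IER3 in HIV-1 over PBS, SPRY4 and SGK1 in HIV-1+LTA over HIV-1 and EGR1 in the batch comparison fall outside this rule and were picked after their values were seen.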

Additional observations from a re-analysis of the deposited data

How the results depend on the processing

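The edgeR fit with the replicate block called 0 genes in each treatment comparison, and without the replicate block it again called 0. HIV-1 over PBS had 3 calls with DESeq2 and the block, 1 with DESeq2 without it, 30 with no filter on low counts, 5 without batch 1, and 0 to 2 when 1 library was left out. HIV-1+LTA over HIV-1 had 252, 1, 1016 and 1567 calls in the same settings, and 0 to 2390 when 1 library was left out, the highest without HIV-1+LTA library 1. HIV-1+LTA over PBS had 236 calls with DESeq2 and the block, 0 with DESeq2 without it, 1045 with no filter, 1733 without batch 1, and 0 to 2648 when 1 library was left out (2648 without HIV-1+LTA library 1, 90 without PBS library 1). Batch 2 over batch 1 had 5 calls in the edgeR fit, 101 with DESeq2, 8 with limma-voom, 332 with no filter and 1 to 214 with 1 library left out, 214 being without HIV-1+LTA library 1 and 127 without HIV-1+LTA library 2. Batch 3 over batches 1 and 2 had 11478 calls, and 10282 to 11773 under its alternatives. The cause of these moves was not tested. Of the members' values in batch 3 over batches 1 and 2, all 130 under the alternatives kept their sign; in the treatment comparisons 271, 282 and 278 of 300 did for HIV-1 over PBS, HIV-1+LTA over HIV-1 and HIV-1+LTA over PBS. The alternatives reuse the same libraries, so kept signs are not separate support for the members' values. DUSP2, at 7 to 38 counts per library, is the member that depth limits most.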
